A study of Mus musculus with 12 samples.

Results

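The transcripts described are those of the core splicing factor families: the SR proteins, the heterogeneous nuclear ribonucleoproteins (hnRNP) and the small nuclear ribonucleoprotein (snRNP) proteins. Members were chosen by gene name alone, as every transcript cluster of the array whose single gene symbol was Srsf followed by a number or started with Hnrnp or Snrp. They were 66 of 35556 transcript clusters and carried 39 of 18820 gene symbols. SR proteins gave 14 transcript clusters of 10 genes, hnRNP proteins 34 of 18 genes and snRNP proteins 18 of 11 genes. A transcript cluster is the array's set of probes for 1 transcription unit, and 11 member genes had more than 1. Hnrnpa3 had 9, of which 2 held identical values on all arrays, and Hnrnpf and Snrpd2 had 5 each. Whether each of these measured the named gene or a near-identical copy elsewhere in the genome cannot be told from the deposited values, so counts of transcript clusters are given together with counts of genes.

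Total RNA of heart and cerebrum was hybridised to Affymetrix whole-transcript arrays, with 12 arrays in 4 groups of 3. All groups carried the same genotype, a humanized FDloxP/+ knock-in on the C57BL/6J strain that serves as a model of familial dysautonomia (FD), an inherited neuropathy that arises from a splicing defect. From 4 months of age, the mice were gavaged every other day for 3 months with phosphatidylserine (PS), a membrane phospholipid, at 200 mg/kg in 100 microliter, or with medium-chain triglycerides (MCT), its vehicle. The groups were thus heart MCT, heart PS, cerebrum MCT and cerebrum PS, and no array of another genotype was analysed here. The series design describes 6 FD mice, whereas the growth protocol mentions 3 FD and 3 wild-type mice, which the genotype labels do not show. The series asks whether PS changes gene expression in these mice. The arrays are called biological replicates in their titles.

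SR proteins bind exonic enhancers through RNA recognition motifs and recruit the splicing machinery through domains rich in arginine and serine. Proteins of the hnRNP families coat nascent transcripts, often oppose exon inclusion and also act in RNA export, stability and transport. The Sm proteins Snrpb, Snrpd1, Snrpd2, Snrpd3, Snrpe, Snrpf and Snrpg form the ring on the spliceosomal small nuclear RNAs, while Snrpa and Snrpc belong to the U1 particle and Snrpa1 and Snrpb2 to the U2 particle. Brain is known for extensive alternative splicing, and heart for splicing programmes of its contractile genes.

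Promoter sequences were available from RefSeq (GRCm38.p6) for 35 of the 39 genes, with 48 promoters of 250 bases before the transcript start. Those of Hnrnpa3 and Hnrnph3, the hnRNP genes with the largest called differences in cerebrum, and of the Sm protein genes Snrpd2 and Snrpg, both higher in heart than in cerebrum, are given 5′ to 3′. Capitals mark matches on either strand to the ETS core CCGGAA, the GC box GGGCGG, the CCAAT box, the E box CACGTG or the TATA box TATAAA.
Hnrnpa3 (chr2:75659009-75659258, plus strand): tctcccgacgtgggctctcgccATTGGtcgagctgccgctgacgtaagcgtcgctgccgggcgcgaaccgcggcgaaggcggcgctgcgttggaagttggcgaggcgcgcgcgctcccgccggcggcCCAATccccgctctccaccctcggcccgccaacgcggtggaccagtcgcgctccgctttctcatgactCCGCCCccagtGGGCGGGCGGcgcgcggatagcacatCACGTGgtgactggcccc
Hnrnph3 (chr10:63023850-63024099, minus strand): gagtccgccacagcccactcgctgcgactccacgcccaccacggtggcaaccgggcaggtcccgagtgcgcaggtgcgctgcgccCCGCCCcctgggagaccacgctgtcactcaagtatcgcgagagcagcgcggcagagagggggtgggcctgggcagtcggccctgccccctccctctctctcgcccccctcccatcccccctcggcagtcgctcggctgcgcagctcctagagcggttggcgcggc
Snrpd2 (chr7:19149588-19149837, plus strand): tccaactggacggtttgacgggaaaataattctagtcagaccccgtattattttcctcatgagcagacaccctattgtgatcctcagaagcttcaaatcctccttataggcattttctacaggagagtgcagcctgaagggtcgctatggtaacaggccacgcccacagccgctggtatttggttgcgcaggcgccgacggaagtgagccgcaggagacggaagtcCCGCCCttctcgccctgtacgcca
Snrpg (chr6:86371290-86371539, plus strand): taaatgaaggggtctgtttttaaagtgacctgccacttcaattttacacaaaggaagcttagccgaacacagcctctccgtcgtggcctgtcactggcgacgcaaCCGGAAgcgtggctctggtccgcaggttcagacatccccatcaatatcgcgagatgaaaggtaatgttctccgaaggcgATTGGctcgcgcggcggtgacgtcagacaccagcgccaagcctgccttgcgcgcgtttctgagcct

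The Hnrnpa3 promoter held 3 GC boxes, 2 CCAAT boxes and 1 E box, and its GC content was 73.2%. Hnrnph3 had 1 GC box at a GC content of 73.6%. The promoter of Snrpd2 had 1 GC box and that of Snrpg 1 ETS core and 1 CCAAT box, at GC contents of 54.0% and 55.6%. Median GC content was 68.4% for SR and for hnRNP promoters and 54.8% for snRNP promoters, against 52.4% over all 32851 promoters. The GC box was in 92.3% of 13 SR, 76.0% of 25 hnRNP and 50.0% of 10 snRNP promoters, against 32.7% of all. An ETS core was in 53.8%, 28% and 50.0% of them, against 12% of all, and a CCAAT box in 23.1%, 64.0% and 30.0%, against 33.8%. The E box was in 0%, 12% and 20.0%, against 6.02%, and the TATA box in 15.4%, 0% and 10%, against 12.4%. GC boxes and ETS cores were therefore more frequent in all 3 families than over all promoters, and CCAAT boxes in the hnRNP family alone. These matches describe letters in the window and not bound factors, and several promoters can belong to 1 gene. The start used need not be the outer end of the annotated gene. The windows of Hnrnpa3 and Hnrnph3 lay partly, and that of Snrpd2 wholly, inside the annotated span of the gene.

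Values are given as deposited, on a scale taken as log2 intensity, on which a difference of 1 is 2-fold. Array medians were 4.89 to 5. Correlations across transcripts were 0.979 to 0.995 within a group and 0.825 to 0.852 between tissues. Tissue identity was clear: the mean of 7 neuronal and glial markers was 10.49 to 10.62 in cerebrum and 4.83 to 5.37 in heart, and that of 5 heart muscle markers was 12.40 to 12.47 in heart and 5.04 to 5.27 in cerebrum. Xist, the RNA that silences 1 X chromosome in female cells, was 8.92 to 9.86 in all heart PS arrays and in cerebrum PS 1 and PS 3. It was 3.32 to 4.03 in all other arrays, so that sex pattern and treatment cannot be told apart in heart. In cerebrum they part on PS 2 alone, so they are largely confounded there too. The same holds for the test of the PS effect between tissues. The mean of 11 striatal markers was 9.47 to 9.65 in cerebrum MCT and 6.94, 7.04 and 8.84 in cerebrum PS 1, 2 and 3. The mean of 4 atrial markers was highest in heart MCT 3 at 8.35 and heart PS 3 at 7.83, against 6.62 to 7.13 in the other heart arrays. Of these markers, Nppa alone went the other way, at 10.44 in heart MCT 3 and 10.71 in heart PS 3, against 11.31 to 12.31. Cerebrum PS 1 and PS 2 and heart MCT 3 and PS 3 stand apart. Member counts are given with and without single arrays, but not without cerebrum PS 1 and PS 2 together.

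Most members lay well above the array medians in both tissues. The mean over the SR genes was 8.18 to 8.28 in cerebrum MCT, 8.09 to 8.22 in cerebrum PS, 7.52 to 7.72 in heart MCT and 7.81 to 7.93 in heart PS. For hnRNP genes it was 8.86 to 8.95, 8.66 to 8.70, 8.52 to 8.56 and 8.77 to 8.81 in the same order. For snRNP genes it was 7.64 to 7.75, 7.60 to 7.64, 8.04 to 8.37 and 7.87 to 7.95. The hnRNP means of MCT and PS arrays thus did not overlap in either tissue, lower with PS in cerebrum and higher with PS in heart. Only transcript clusters whose mean reached the 40th percentile of the arrays compared were tested, a filter of 4.935 to 5.23. Snrpf, at 2.78 to 3.17 on the 12 arrays, and 1 transcript cluster of Hnrnpf, at 4.01 to 4.70, were below it in every comparison, which left 64 transcript clusters of 38 genes. One transcript cluster of Srsf10 was also below it between tissues with MCT.

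For PS against MCT in cerebrum, the question the series asks about in brain, the transcripts of 4 hnRNP genes fell with PS. Of 33 hnRNP transcript clusters, 12 fell past an adjusted p of 0.05, 9 of them Hnrnpa3 and 1 each Hnrnph3, Hnrnpr and Hnrnpd. Of 14 SR transcript clusters, 1 of Srsf5 fell and 1 of Srsf10 rose, and of 17 snRNP transcript clusters 0 passed in limma, with 5 at an unadjusted p under 0.05. In all, 14 of 64 members, or 6 of 38 genes, passed, 13 lower and 1 higher. Over all 12733 transcripts tested, 5.76% passed, 3.93% lower and 1.83% higher, and 29% had an unadjusted p under 0.05. The median difference was -0.24 for hnRNP, -0.11 for SR and -0.10 for snRNP members, against -0.03 over all transcripts tested. Differences below 0 were found for 53 of 64 members and 31 of the 33 hnRNP members, against 54.5% of all transcripts, of which 45% were above 0. PS and MCT arrays did not overlap for 29 members that were lower and 5 that were higher, against 20.4% and 12.4% of all transcripts.

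Hnrnpa3, an A/B-type hnRNP that takes part in splicing and in cytoplasmic transport of mRNA, averaged 9.43, 9.35 and 9.51 over its 9 transcript clusters in cerebrum MCT 1, 2 and 3, and 8.77, 8.69 and 8.76 in cerebrum PS 1, 2 and 3. All PS arrays were below all MCT arrays. Its 9 differences ran from -0.72 to -0.67 with a median of -0.69 (limma, adjusted p = 0.0136 to 0.0159). Hnrnph3, of the H/F family that binds runs of G, was 8.0, 7.99 and 8.08 with MCT and 6.98, 7.36 and 7.34 with PS. It fell by 0.80 ± 0.12 (SE, adjusted p = 0.0239), from 8.02 ± 0.05 to 7.23 ± 0.21 (SD, n = 3), with the lowest value in PS 1. The mRNA decay factor Hnrnpd (AUF1), which binds AU-rich elements, was 9.14, 9.19 and 9.32 with MCT and 8.83, 8.78 and 8.88 with PS. Its fall by 0.39 ± 0.08 (adjusted p = 0.0437) was smaller than that of Hnrnpa3 and Hnrnph3, and again no PS array reached the MCT range. Hnrnpr, an RNA-binding protein of neuronal mRNA transport, was 7.75, 7.60 and 7.80 with MCT and 7.33, 7.29 and 7.31 with PS, a difference of -0.41 ± 0.08 (adjusted p = 0.0407).

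Other hnRNP members did not pass the test. Hnrnpdl, a relative of Hnrnpd, differed by -0.46 (adjusted p = 0.0608), Hnrnpul2, a relative of the nuclear matrix protein Hnrnpu, by -0.31, and Hnrnpa2b1, of the same A/B type as Hnrnpa3, by -0.24. Both transcript clusters of Hnrnpc, which binds U-rich tracts, differed by -0.33 and -0.28. Hnrnpu itself was 10.22 to 10.45 with MCT and 10.20 to 10.34 with PS, so its groups overlapped.

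Among SR proteins in cerebrum, the called transcript cluster of Srsf5, whose transcript is known to respond to growth and hormone signals, was 8.5, 8.32 and 8.28 with MCT and 7.85, 7.56 and 7.97 with PS. It fell by 0.57 ± 0.12 (adjusted p = 0.0443), and the other Srsf5 transcript cluster, at -0.54 (adjusted p = 0.0566), did not pass. Srsf10, a splicing repressor in its dephosphorylated state, had 2 transcript clusters that stood higher with PS. The dimmer was 5.13, 5.22 and 5.28 with MCT and 5.55, 5.57 and 5.53 with PS, close to the filter of 5.04, and rose by 0.34 ± 0.08 (adjusted p = 0.0469). This call was lost under quantile normalization and median centring and passed in 2 of 16 alternatives (adjusted p = 0.00916 to 0.513). The brighter was 9.43, 9.53 and 9.62 with MCT and 9.63, 9.86 and 9.80 with PS, a difference of 0.24 (adjusted p = 0.149). The remaining SR members lay close to 0 and did not pass. Srsf3, the smallest SR protein and an RNA export adaptor, differed by -0.20, -0.20 and -0.19 over its 3 transcript clusters. Differences were -0.12 for Srsf11, -0.11 for Srsf1, the prototype of the family, -0.10 for Srsf9, -0.02 for Srsf2, -0.01 for Srsf12, 0.03 for Srsf6 and 0.09 for Srsf4. Quantile normalization turned the sign of Srsf2 and Srsf12, to 0.01 and 0.03.

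No snRNP member passed in cerebrum. Snrpe, an Sm ring protein, was 9.36, 9.47 and 9.16 with MCT and 8.79, 7.60 and 8.91 with PS, a difference of -0.90 ± 0.32 (adjusted p = 0.119), with PS 2 the lowest array. Snrpb, which gives the Sm proteins B and B′, was 8.18 to 8.32 with MCT and 8.37 to 8.56 with PS, a difference of 0.26 (adjusted p = 0.108). The U1 protein Snrpa differed by 0.25, the U2 protein Snrpb2 by -0.33, and both of Snrpg by -0.29 and -0.27.

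Several measures moved with treatment in cerebrum. All 11 striatal markers had lower means with PS, 4 past the test, with a median of -1.87. Of 7 neuronal and glial markers 4 were above 0, with a median of 0.05, and the myelin protein Mog, which fell by 0.73, was the only one called. The mean of 5 choroid plexus markers was 5.91, 6.63 and 4.67 in MCT 1, 2 and 3 and 4.34, 3.80 and 4.51 in PS 1, 2 and 3, and Ttr, the only one tested, differed by -3.57 without passing. All 6 endothelial markers were above 0, with a median of 0.42, and 0 were called in limma (3 at an unadjusted p under 0.05). Of ribosomal protein transcript clusters 265 of 360 were below 0, against 54.5% of all transcripts. The test called 15 of the 360 (4.17%), against 5.76% of all transcripts. The part of tissue composition in the differences of members was not tested. With PS 1 and PS 2, the arrays of lowest striatal markers, left out, PS 3 alone stood for its group, so members passing are not counted for that fit. With the mean of the striatal markers as a covariate, 0 members passed (15 unadjusted), and 1 of all 12733 transcripts did. Hnrnpa3 averaged 8.69 in PS 2, which had the low Xist of the MCT arrays, and 8.77 and 8.76 in PS 1 and PS 3. The part of sex in the member differences was not tested, and 1 array cannot separate it from treatment or striatal markers. In bulk tissue, fewer cells of a type and less RNA per cell cannot be told apart. The number of members called was 0 without MCT 1, MCT 2 or PS 1, 10 without MCT 3 or PS 2 and 15 without PS 3, and members at an unadjusted p under 0.05 were 18, 17 and 23 where none passed. Of all transcripts, 0%, 0.0157% and 0% passed without MCT 1, MCT 2 and PS 1. The shares were 4.83% without MCT 3, 1.14% without PS 2 and 12.2% without PS 3.

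**Figure D1:**
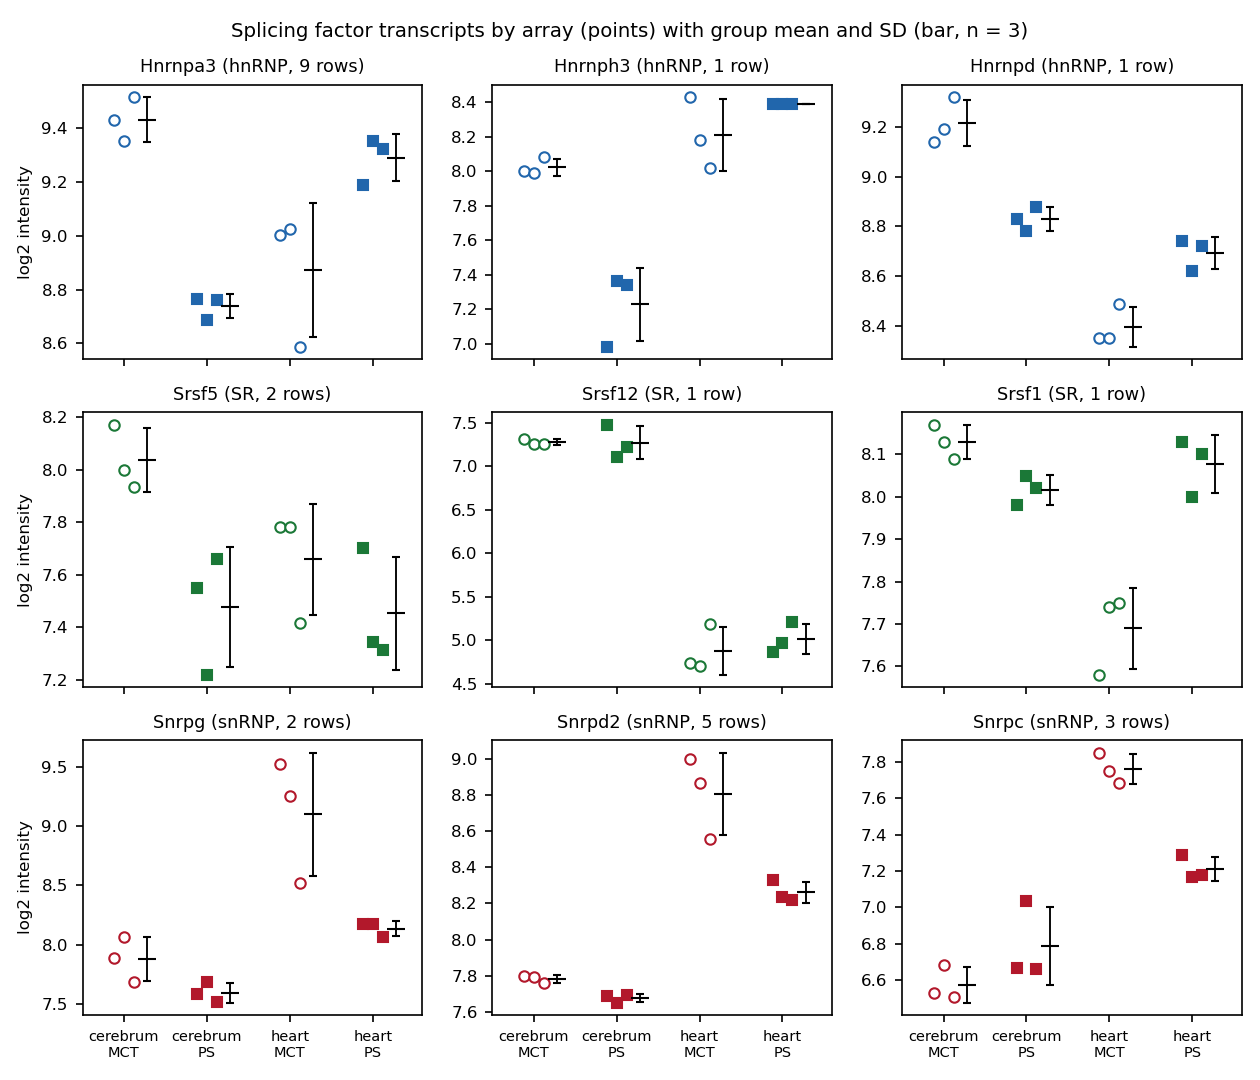
Log2 intensity of selected splicing factor genes on each of the 12 arrays, by tissue and treatment; points are arrays and bars are the mean with its SD (n = 3), genes with several transcript clusters (rows) are shown as their mean, and the vertical axes differ between panels and do not start at 0. Hnrnpa3 was 8.69 to 8.77 in cerebrum PS against 9.35 to 9.51 in cerebrum MCT, and the highest heart values of Snrpg, Snrpd2 and Snrpc were in MCT arrays.

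For PS against MCT in heart, no member passed the test in limma: 0 of 64, with 34 at an unadjusted p under 0.05. Over all 12736 transcripts, 0.33% passed, 0.157% higher and 0.173% lower, and 23.7% had an unadjusted p under 0.05. The families differed in direction. Of 33 hnRNP members 32 were above 0 with a median of 0.29, and of 14 SR members 12 were above 0 with a median of 0.27. Of 17 snRNP members 16 were below 0 with a median of -0.53. All transcripts had a median of 0.06, 57.7% above 0 and 41.8% below. PS and MCT arrays did not overlap for 34 members that were higher with PS and 11 that were lower, against 17.2% and 11.2% of all transcripts.

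Among the largest positive values were those of Hnrnph2, an X-linked H/F family protein, with 0.53 (adjusted p = 0.112) and 0.46 (adjusted p = 0.122) for its transcript clusters, and of Hnrnpu. The second was 7.48, 7.48 and 7.44 in heart MCT and 7.96, 8.02 and 7.81 in heart PS. Hnrnpu was 9.47, 9.64 and 9.90 with MCT and 10.15, 10.23 and 10.15 with PS, a difference of 0.51 ± 0.14 (adjusted p = 0.131). All PS arrays of these genes were above all MCT arrays. Hnrnpa2b1, at 9.33, 9.29 and 9.56 with MCT and 9.86, 9.72 and 9.80 with PS, differed by 0.40 (adjusted p = 0.138). Hnrnpa3 averaged 9.0, 9.03 and 8.59 with MCT and 9.19, 9.35 and 9.32 with PS. Its 9 differences were 0.40 to 0.45 (adjusted p = 0.153 to 0.176), and heart MCT 3 was the low array. Hnrnpd differed by 0.30, Hnrnph1 by 0.33 and Hnrnph3 by 0.18.

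Srsf1 was 7.58, 7.74 and 7.75 in heart MCT and 8.13, 8.0 and 8.10 in heart PS, a difference of 0.39 ± 0.11 (adjusted p = 0.135) with no overlap. Srsf4 differed by 0.38, Srsf9 by 0.37, Srsf2 by 0.34, Srsf11 by 0.28, Srsf12 by 0.14 and Srsf6 by 0.13. The 2 transcript clusters of Srsf10 differed by 0.33 and 0.32, and those of Srsf3 by 0.27, 0.26 and 0.16. Srsf5 was the only SR gene with negative values, -0.22 and -0.19, and none of these SR values passed the test. The 0.16 of Srsf3 turned to -0.04 without heart MCT 3 or without heart PS 2.

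The Sm protein Snrpg was 10.07, 9.99 and 9.37 in heart MCT and 9.0, 9.05 and 9.01 in heart PS in its brighter transcript cluster, a difference of -0.79 ± 0.19 (adjusted p = 0.121). Its other transcript cluster differed by -1.14 (adjusted p = 0.125). All PS arrays were below all MCT arrays, and MCT 3 lay between the other MCT arrays and the PS arrays. Snrpd2 was 9.26, 9.08 and 8.79 with MCT and 8.58, 8.51 and 8.52 with PS in 1 of its 5 transcript clusters, and its differences were -0.62 to -0.51 (adjusted p = 0.118 to 0.134). Snrpc, the U1 protein that contacts the 5′ splice site duplex, was 8.11, 8.02 and 8.0 with MCT and 7.56, 7.55 and 7.40 with PS in 1 of 3 transcript clusters. Its differences were -0.59, -0.54 and -0.52 (adjusted p = 0.101 to 0.122). Snrpe differed by -0.56, Snrpd1 by -0.53 and Snrpb2 by -0.28. Snrpb, at -0.04, was near 0, with 9.09 to 9.26 in MCT and 9.06 to 9.28 in PS arrays.

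**Figure D2:**
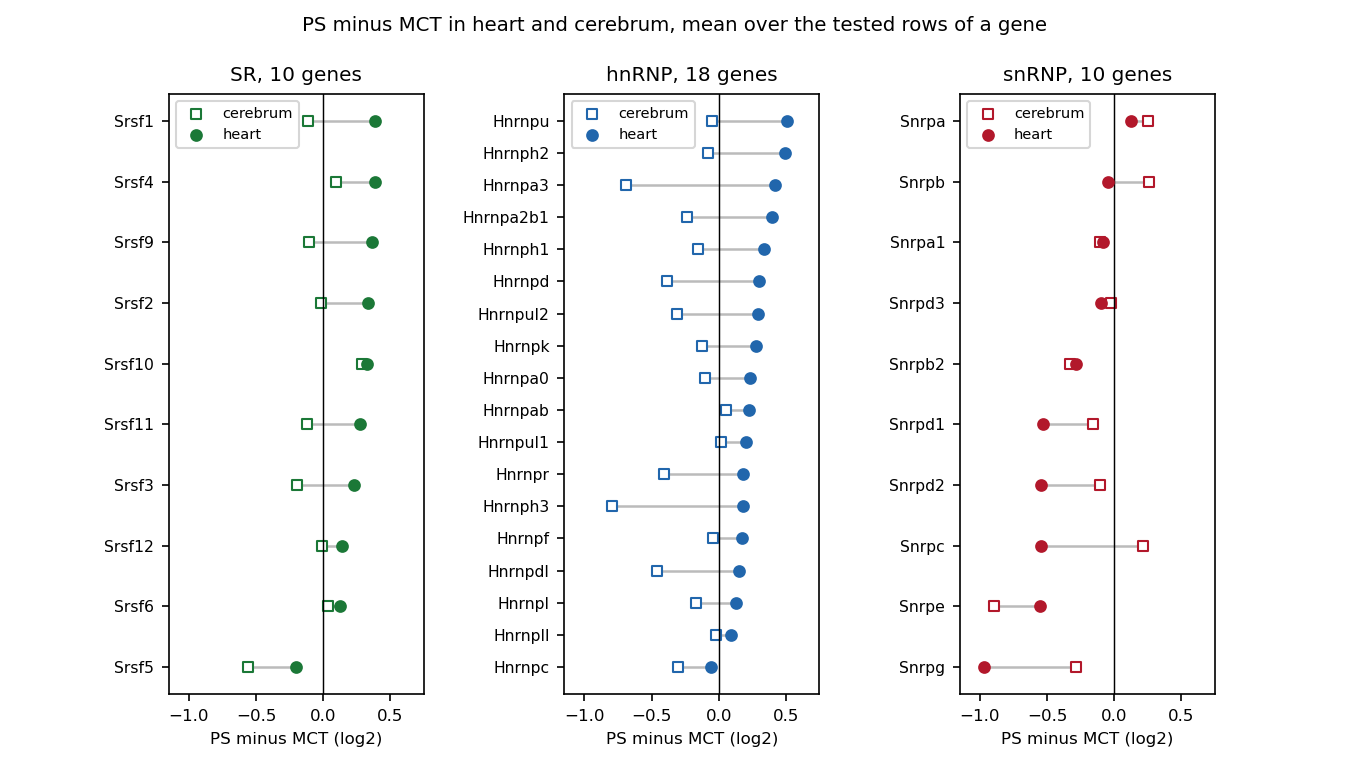
PS minus MCT difference (log2) of each of the 38 tested splicing factor genes, the mean over its transcript clusters, by family; filled circles are heart and open squares cerebrum. Of 18 hnRNP genes 15 were above 0 in heart and below 0 in cerebrum, and of 10 snRNP genes 7 were below 0 in both tissues.

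The heart calls depended on 1 array. Without heart MCT 3, where the mean of the atrial markers was highest, 22 of 63 members passed in limma (34.9%). Of these, 9 were higher and 13 lower (adjusted p = 0.00433 to 0.0466), and 26.8% of all transcripts passed in that fit. The higher were Hnrnpu (0.62), both Hnrnph2 transcript clusters (0.56 and 0.45), Srsf4 (0.54), Hnrnpa2b1 (0.48), Srsf1 (0.42), 1 of Srsf10 (0.37), Hnrnph1 and Hnrnpd (0.34). The lower were both of Snrpg (-1.50 and -1.01), Snrpe (-0.80), all 5 of Snrpd2 (-0.72 to -0.63), Snrpd1 (-0.65), all 3 of Snrpc (-0.62 to -0.56) and Snrpb2 (-0.53). Without both MCT 3 and PS 3, 11 passed, 3 higher and 8 lower, against 9.23% of all transcripts. With all 12 arrays in 1 fit, which pools the spread of both tissues, 30 passed, 19 higher and 11 lower, against 13.5%. Array weights gave 49, against 54.9%, but their estimation did not converge. Leaving out each of the other heart arrays gave 0. The mean of 6 endothelial markers was 8.30, 8.64 and 8.85 in heart MCT and 9.11, 9.36 and 9.22 in heart PS. That of 62 ribosomal protein genes was 10.38, 10.27 and 9.83 in MCT and 9.79, 9.73 and 9.75 in PS. Of the ribosomal transcript clusters 321 of 361 were below 0, against 41.8% of all transcripts. Over 12727 transcript clusters with a gene span in RefSeq (GRCm38.p6), the Spearman correlation across genes of span with the PS difference was 0.31 in heart, and it was 0.104 over 12723 in cerebrum. Over the 38 member genes it was 0.085 and 0.09. These are descriptions, since genes of an array are not independent. The part of these measures in the member differences was not tested.

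Heart and cerebrum were next compared within each treatment, in arrays that the other treatment does not use. With MCT, the snRNP members called were higher in heart, and most SR and hnRNP members called were higher in cerebrum. Of 63 members 51 passed, 19 higher in heart (9 genes) and 32 lower (20 genes), against 75.5% of all 12734 transcripts, 35.2% higher and 40.3% lower, so that the share of members was near that of all transcripts. By family, 13 of 17 snRNP members were higher and 0 lower, 1 of 13 SR members higher and 8 lower, and 5 of 33 hnRNP members higher and 24 lower. The medians were 1.00, -0.38 and -0.45, against -0.07 over all transcripts. Quantile normalization moved the last to 0.08 and left 49 members called, 19 higher and 30 lower.

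The member with the largest tissue difference was Srsf12, a splicing regulator related to Srsf10. It was 7.26 to 7.32 in cerebrum MCT and 4.70 to 5.19 in heart MCT, a difference of -2.40 ± 0.15 (adjusted p = 7.98e-07). Its heart mean of 4.88 was below the filter of 5.23, so the size is approximate. Srsf9, which shares targets with Srsf1, was 8.23 to 8.4 in cerebrum and 6.98 to 7.37 in heart, at -1.10. Other SR members lower in heart past the test were 1 transcript cluster of Srsf3 (-0.96), Srsf11 (-0.77), Srsf4 (-0.50), Srsf1 (-0.44) and both of Srsf5 (-0.38 and -0.37). Srsf6, at 0.33, was higher in heart. The other 2 of Srsf3 (-0.28 and -0.26), Srsf2 (-0.13) and the brighter of Srsf10 (-0.01) did not pass.

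The hnRNP members with the most negative heart minus cerebrum differences were Hnrnpul2 (-1.11), Hnrnph2 (-0.88 and -0.87), Hnrnpd (-0.82), Hnrnpdl (-0.68), Hnrnpr (-0.67) and Hnrnpu (-0.64). Hnrnpk, which binds C-rich RNA, was lower by -0.55 to -0.45, and Hnrnpa3 by -0.68 to -0.45 (adjusted p = 0.00151 to 0.0224). Hnrnpf, an H/F family protein, was the exception, with 4 transcript clusters at 0.59 to 0.62, and Hnrnpab was at 0.26, which did not pass with the replicate number as a block. Among snRNP members, both of Snrpg (1.38 and 1.07), the 3 of Snrpc (1.12, 1.15 and 1.28) and the 5 of Snrpd2 (0.94 to 1.10) were higher in heart. Snrpb was 8.18 to 8.32 in cerebrum and 9.09 to 9.26 in heart, a difference of 0.96, and Snrpe and the U2 protein Snrpa1 differed by 0.87 and 0.51. Snrpa, Snrpb2, Snrpd1 and Snrpd3 did not pass.

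With PS, 38 of 64 members passed, 29 higher in heart (12 genes) and 9 lower (9 genes). Over all 12732 transcripts 75.9% passed, 38.3% higher and 37.6% lower. Of snRNP members 12 were higher and 1 lower, of hnRNP members 16 higher and 3 lower, and of SR members 1 higher and 5 lower, with medians of 0.53, 0.20 and -0.02 against 0.02 over all transcripts. The SR median changed sign under quantile normalization (0.07) and median centring (0.04). Srsf12 remained the member with the largest difference, at -2.26 (adjusted p = 2.3e-06), with 7.11 to 7.48 in cerebrum and 4.87 to 5.21 in heart. Its heart mean of 5.02 was again below the filter, here 5.22, so the size is approximate. Srsf9 (-0.63), 1 transcript cluster of Srsf3 (-0.60), Srsf11 (-0.38) and Srsf4 (-0.21) were lower in heart and Srsf6 (0.42) higher.

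Hnrnpa3 was on the other side of 0 from its MCT values. Its mean was 8.69 to 8.77 in cerebrum PS and 9.19 to 9.35 in heart PS, and its 9 differences were 0.40 to 0.64 (adjusted p = 0.000252 to 0.00452). Hnrnph3 was 6.98 to 7.36 in cerebrum and 8.39 on each of the heart arrays, a difference of 1.16 ± 0.12 (adjusted p = 5.19e-05), where its MCT difference was 0.19. Hnrnpf (0.75 to 0.86), Hnrnpa2b1 (0.58) and Hnrnpab (0.43) were higher in heart, and Hnrnpul2 (-0.51), Hnrnpll (-0.33), an hnRNP L relative that regulates splicing in lymphocytes, and 1 transcript cluster of Hnrnph2 (-0.32) lower. Among Sm and U1 proteins, heart minus cerebrum differences were positive and below those of the MCT arrays for Snrpb (0.66), Snrpd2 (0.52 to 0.73), Snrpg (0.57 and 0.51) and Snrpc (0.54, 0.40 and, not past the test, 0.33). Those of Snrpe (1.21) and the U2 protein Snrpa1 (0.54) were not lower. Snrpe was 7.60 in cerebrum PS 2 against 8.79 and 8.91 in PS 1 and PS 3, and its difference was 0.80 to 1.45 over its alternatives. The treatment effect did not pass the test of its difference between tissues for any of these genes. Snrpd1 was lower in heart, at -0.50, and Snrpa (-0.21) and Snrpd3 (-0.05) did not pass. Across the 38 genes, the tissue differences with MCT and with PS, which share no array, had a correlation of 0.828 and the same sign for 31. This is a description, since genes of an array are not independent replicates.

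**Figure D3:**
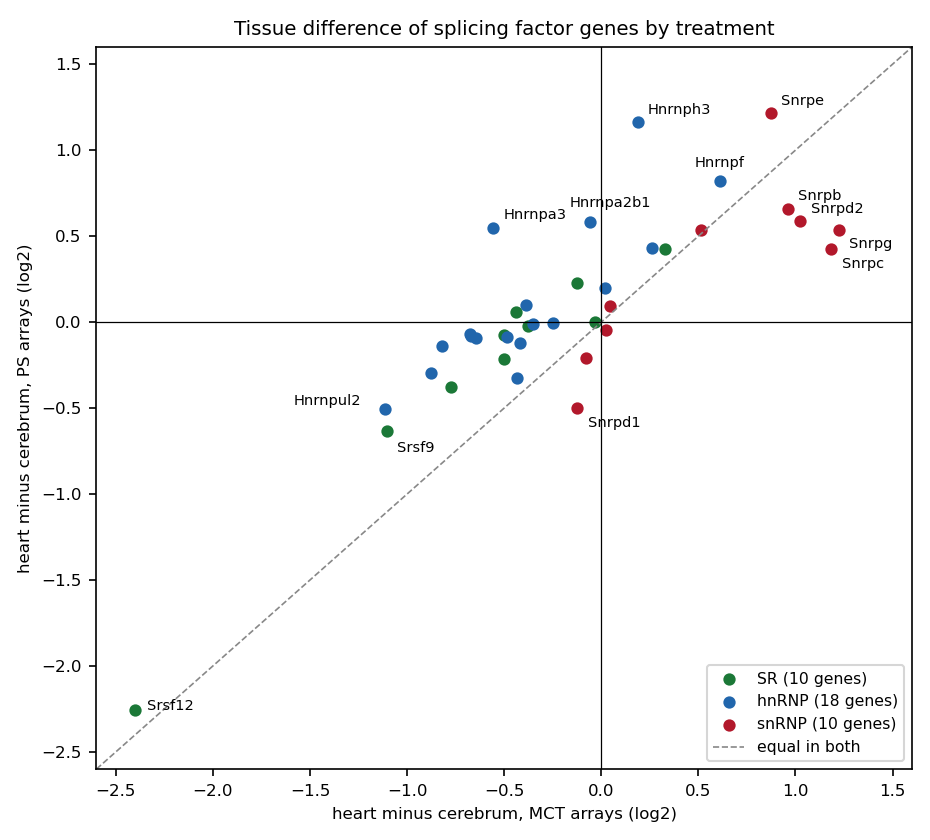
Heart minus cerebrum difference (log2) of each of the 38 genes in MCT arrays (horizontal axis) and PS arrays (vertical axis), coloured by family; the dashed line marks equal differences. Srsf12 lies lowest in both at -2.40 and -2.26, and Hnrnpa3 and Hnrnph3 lie above the line.

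Whether PS acted differently in heart and cerebrum was tested as the heart effect minus the cerebrum effect, over all 12 arrays. In limma, 11 transcript clusters of 3 genes passed, all hnRNP and all higher: the 9 of Hnrnpa3, Hnrnph3 and Hnrnpd. With a block that paired MCT and PS arrays of equal number within each tissue, 0 members passed in limma (35 at an unadjusted p under 0.05). Adjusted p was up to 0.0695 for Hnrnpa3, 0.0695 for Hnrnph3 and 0.0882 for Hnrnpd. That fit called 0 of all 12731 transcripts and did not pair heart with cerebrum. Without the block 11 of 64 members passed, against 1.52% of all 12731 transcripts, 1.1% higher and 0.424% lower. Values above 0 were found for 33 of 33 hnRNP members (median 0.55) and 13 of 14 SR members (median 0.35), and 14 of 17 snRNP members were below 0 (median -0.41). All transcripts had a median of 0.07, 58.9% above 0 and 40.7% below. The signs of the family medians held under quantile normalization and median centring in this comparison and in both comparisons of PS with MCT.

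For Hnrnpa3 the difference was 1.07 to 1.17 with a median of 1.10 (adjusted p = 0.0125 to 0.0169): PS arrays were lower than MCT arrays in cerebrum and higher in heart, with no overlap in either. For Hnrnph3 it was 0.98 ± 0.18 (95% interval 0.59 to 1.36, adjusted p = 0.0252), from a fall in cerebrum and heart values of 8.02 to 8.43 with MCT and 8.39 with PS, which overlapped. For Hnrnpd it was 0.68 ± 0.13 (95% interval 0.40 to 0.96, adjusted p = 0.0277), and its groups did not overlap in either tissue, with 8.35, 8.35 and 8.49 in heart MCT and 8.74, 8.62 and 8.72 in heart PS. Not past the test were Snrpc (-0.79, -0.75 and -0.74, adjusted p = 0.0554 to 0.0682), Hnrnpa2b1 (0.64, adjusted p = 0.0594), Srsf1 (0.50, adjusted p = 0.0683) and Hnrnpdl (0.61, adjusted p = 0.0757). By the mean of each gene, 21 of 38 genes were above 0 in heart and below 0 in cerebrum, 15 of them hnRNP, 6 SR and 0 snRNP, and 9 genes were below 0 in both, 7 of them snRNP. Without heart MCT 3, 32 members passed, 22 higher and 10 lower, against 12.8% of all transcripts in that fit, the lower among them transcript clusters of Snrpg, Snrpc and Snrpd2. Without cerebrum MCT 1 none passed (33 at an unadjusted p under 0.05), against 0.0236% of all transcripts. Without any other array 9 to 14 did, against 0.298% to 2.86%.

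**Figure D4:**
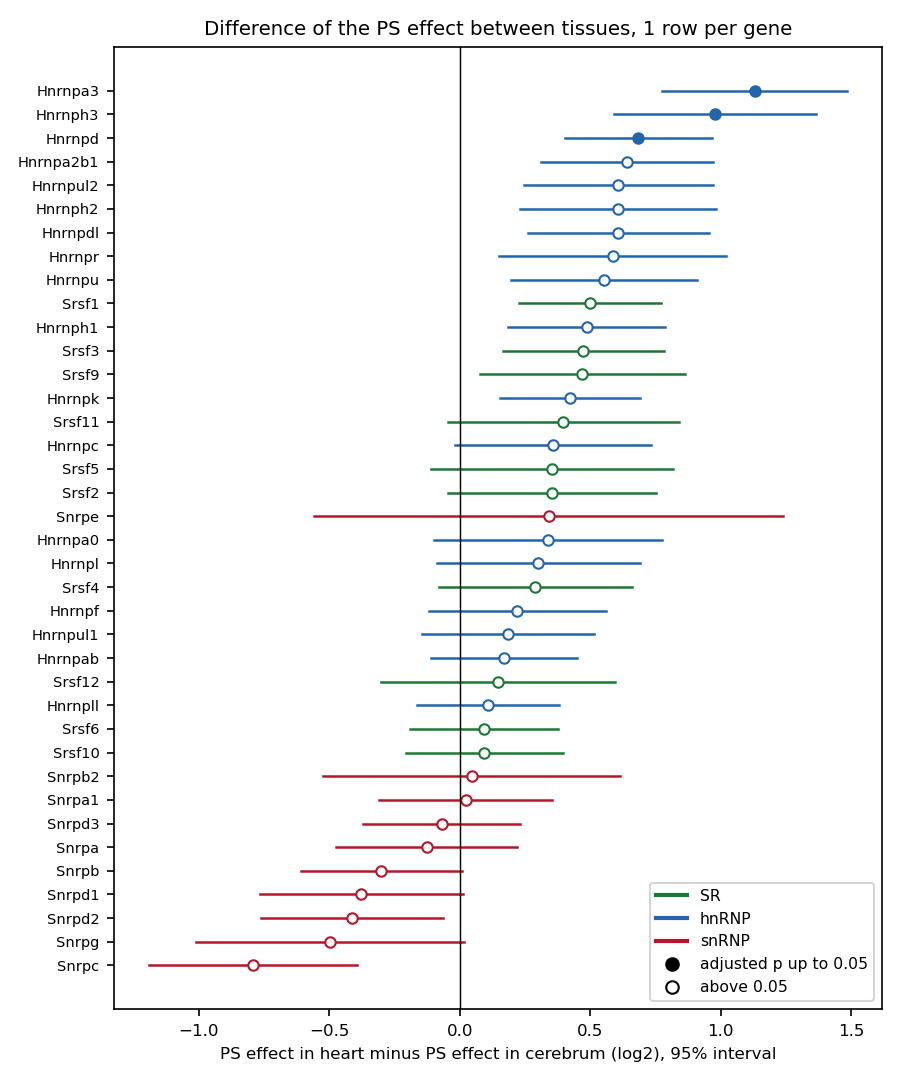
PS effect in heart minus PS effect in cerebrum (log2) for 1 transcript cluster of each of the 38 genes with its 95% interval; filled points passed an adjusted p of 0.05. The filled points are Hnrnpa3, Hnrnph3 and Hnrnpd, and the lowest values are those of snRNP genes.

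Other genes of the splicing pathway were counted in 6 lists. In cerebrum, 1 of 28 transcript clusters of U snRNP-specific and SF3 proteins passed, Prpf31, a tri-snRNP protein, at -0.34 (adjusted p = 0.045). Of 37 for tissue-regulated splicing regulators, Rbpms rose by 0.62 (adjusted p = 0.0302) and Celf6, a CELF family splicing regulator, fell by 0.55 (adjusted p = 0.0383). None passed among 9 for kinases and importers of SR proteins, 16 for SR-related proteins, 16 for other hnRNP-like proteins and 24 for assembly of Sm and LSm cores, with 1, 5, 2 and 10 at an unadjusted p under 0.05 in limma. Of all transcripts in cerebrum, 5.76% passed and 29% had such a p. In heart none passed in any list, with 12 of 29 in the U snRNP list, 3 of 10, 4 of 16, 9 of 29, 2 of 15 and 7 of 24 in those of kinases, SR-related proteins, regulators, hnRNP-like proteins and assembly at an unadjusted p under 0.05. Of all transcripts in heart, 0.33% passed and 23.7% had such a p. There, 24 of 29 of the U snRNP list and 15 of 16 SR-related ones were above 0, against 57.7% of all transcripts. Luc7l3, a U1-associated protein, was at 0.72, the branch site factor Sf3b1 at 0.55 and the SR-related scaffold Srrm2 at 0.68, whereas Snrnp25, with the lowest p of its list, was at -0.69 and Snrnp27 at -0.54. In the Sm and LSm assembly list 19 of 24 were below 0, against 41.8% of all transcripts, among them Lsm7 at -1.08 (adjusted p = 0.0951), Lsm3 at -0.77, Lsm10 of the U7 particle at -0.63 and Gemin7 of the SMN complex at -0.61.

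Between tissues with MCT, the neuronal regulators Celf4 (-5.61), Nova1 (-4.65) and Celf3 (-4.40) were lower in heart and Rbpms, a muscle splicing regulator, higher (5.13). The heart means of Celf4 (4.61), Nova1 (4.29) and Celf3 (4.33) lay under the filter of 5.23, which makes the sizes approximate. Of 38 in that list 9 were higher and 24 lower, against 35.2% and 40.3% of all transcripts. The muscle SR protein kinase Srpk3 was higher in heart by 1.80 with MCT and 2.08 with PS, sizes that are approximate because its cerebrum means of 4.43 and 4.50 were below the filter. Among hnRNP-like proteins Msi1 (-3.00) and Pcbp3 (-2.78) were lower in heart and Msi2 (0.64) higher, all with MCT, and the heart mean of Msi1 (4.82) was below the filter. With PS, Rbfox3 (-5.84) and Celf5 (-4.50) were lower in heart and Rbm38 (4.31) and Rbpms (4.81) higher, with heart means of Rbfox3 (4.50) and Celf5 (4.77) below the filter. In the test of the difference between tissues, Luc7l3 (1.07, adjusted p = 0.0255) and Sf3b1 (0.69, adjusted p = 0.0429) passed as higher and the neuronal regulator Rbfox3 (-0.92, adjusted p = 0.0437) and Gemin7 (-0.74, adjusted p = 0.0434) as lower. Another 10 transcript clusters carried a splicing factor symbol together with others and name no gene.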

How the data were processed

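Values for 35556 transcript clusters on 12 arrays were taken as the authors deposited them. The submitters' processing notes name Affymetrix Expression Console; neither version, summary method nor genome build is given in the sources used here. Their scale was read as log2 intensity, since deposited values reached 13.11 (lowest 1.9), above the natural log of a 16-bit maximum, 11.1. Scaling to near-equal medians would hide any general shift, and a summary per transcript cluster hides differences between exons.

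Of the transcript clusters, 21218 had 1 gene symbol, 1881 several and 12457 none in the supplied annotation; 21185 matched the gene table and 0 symbols changed. Only clusters with 1 symbol were compared. Members and gene lists were chosen with earlier results of these data known, and the ribosomal protein list was added after. Named were the largest called member differences per comparison (up to 10 a direction, filled up to 10 with the lowest p), all Srsf clusters, Hnrnpa3 as a group and Snrpb, and up to 4 genes of each list; one item of this rule is not reported here. Genes named beyond it were chosen after their values were seen.

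Groups of 3 arrays were compared with limma 3.58.1 (lmFit, eBayes) in R 4.3.3, Benjamini-Hochberg over all tested clusters, threshold 0.05, filter at the 40th percentile; the fits were tested on simulated data. The number of arrays limits the precision. Deviations of arrays of equal number from their group means were correlated between heart and cerebrum at r = 0.114, 0.102 and 0.287 with MCT. With PS they were at 0.115, 0.098 and 0.054. Arrays of unequal number were not compared, so these values do not settle whether equal numbers are 1 mouse. Xist was 9.13 in heart PS 2 and 3.32 in cerebrum PS 2, and the Y-linked gene Eif2s3y was 3.49 and 7.25. As labelled, the PS 2 arrays of heart and cerebrum thus differ in sex pattern and cannot be 1 mouse. The main fits were unpaired. Alternatives changed the scaling, the filter, the clusters tested, the variance model, array weights, blocks and arrays left out.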

Additional observations from a re-analysis of the deposited data

Results flagged for a closer look

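The effect of PS differed between heart and cerebrum, by limma's test of the difference itself over 12 arrays, for 3 splicing factor genes and 4 genes of the pathway lists. Hnrnpa3 had a median of 1.10 over its 9 transcript clusters, Hnrnph3 0.98 and Hnrnpd 0.68, all higher in heart. Luc7l3 had 1.07 and Sf3b1 0.69, higher in heart, and Rbfox3 had -0.92 and Gemin7 -0.74, lower in heart. The heart means of Rbfox3, 5.02 with MCT and 4.50 with PS, were below the filter of 5.23, so it was tested through its cerebrum level and its value is approximate. With a block that paired MCT and PS arrays of equal number within each tissue, none of these genes passed this test (limma, adjusted p up to 0.0998). In that fit 0 of all 12731 transcripts passed, and 35 splicing factor clusters had an unadjusted p under 0.05. It did not pair heart with cerebrum. Over 21 to 22 alternatives, the Hnrnpa3 clusters passed in 19 or 20. Of 22 alternatives, Hnrnph3 and Luc7l3 each passed in 14, Hnrnpd in 11, Sf3b1 in 10, Gemin7 in 9 and Rbfox3 in 7, with adjusted p up to 0.0736, 0.0843, 0.0882, 0.131, 0.114 and 0.112. The sign of none of them reversed.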

How the results depend on the processing

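In cerebrum 14 members passed. Array weights gave 24 (26.8% of all transcripts), 1 transcript cluster per symbol 5 (6.02%) and leaving out 1 array 0 to 15 (0% to 12.2%). A block that paired MCT and PS arrays of equal number gave 0 (27 at an unadjusted p under 0.05), and 0 of all 12733 transcripts. The mean of the striatal markers as a covariate gave 0, and 1 of all 12733 transcripts. Leaving out PS 1 and PS 2 together (chosen after seeing the data) left 1 PS array, so its calls are not counted. In heart 0 passed. Array weights gave 49 (54.9% of all transcripts, not converged) and all 12 arrays in 1 fit 30 (13.5%). Leaving out MCT 3 and PS 3 together gave 11 (9.23%, chosen after seeing the data). Leaving out 1 array gave 0 to 22 (0.0314% to 26.8%). Between tissues with MCT, 1 transcript cluster per symbol gave 29 of 38 (76.3%, against 76.6% of all transcripts) in place of 51 of 63. With PS it gave 18 of 38 (47.4%, against 76.4%) in place of 38 of 64. Leaving out 1 array gave 43 to 51 with MCT (67.7% to 81% of all transcripts) and 34 to 37 with PS (70.3% to 74%). The replicate block gave 50 with MCT and 38 with PS (76.2% and 75.4% of all transcripts). It ended the call of Hnrnpab with MCT and of Srsf4 with PS. Over their alternatives, Hnrnpa3 clusters differed in cerebrum by -0.76 to -0.63 (adjusted p = 0.00231 to 0.371). For the difference between tissues, 11 passed. With 1 transcript cluster per symbol 3 passed (1.53% of all transcripts), and with 1 array left out 0 to 32 did (0.0236% to 12.8%). Leaving out heart MCT 3 and PS 3 together gave 26 (8.59%, chosen after seeing the data). The block that paired MCT and PS arrays of equal number within each tissue gave 0 (35 unadjusted), and 0 of all 12731 transcripts. In that limma fit adjusted p was up to 0.0695 for Hnrnpa3, 0.0695 for Hnrnph3 and 0.0882 for Hnrnpd. Counts under the other alternatives were within 1.5 times the main count. Reversed in cerebrum were Srsf2 (0.0068) and Srsf12 (0.0274) under quantile normalization, Srsf6 (-0.0187) and Srsf12 (0.0151) under array weights, and, with the striatal covariate, Srsf2 (0.108), Srsf3 (0.035, 0.0545 and 0.0268), Srsf9 (0.198) and Srpk1 (-0.0688). With 1 array left out, Srsf2 ran from -0.0717 to 0.07, Srsf12 from -0.11 to 0.075 and Srsf6 from -0.0033 to 0.0617, and with PS 1 and PS 2 left out Srsf2 was 0.07 and Srsf9 0.10. In heart 1 Srsf3 cluster was -0.252 under array weights and -0.0417 to 0.308 with 1 array left out. Between tissues with MCT, Srsf10 was 0.0655 under array weights and -0.0583 to 0.0383 with 1 array left out. The causes were not tested. The number of arrays limits small differences.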

Other observations

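The 10 transcript clusters that carry a splicing factor symbol together with other symbols were outside the comparisons. Tested with all transcript clusters of the array, their median difference was -0.32 for PS against MCT in cerebrum and 0.16 in heart, and 0 passed in limma in either (7 and 1 at an unadjusted p under 0.05). Between heart and cerebrum, 2 were higher and 1 lower in heart with MCT (median 0.01), and 8 higher and 1 lower with PS (median 0.50). In the same fits 65.9% of all transcript clusters passed with MCT and 64% with PS. The effect of PS in heart minus that in cerebrum had a median of 0.49, and 0 passed (6 at an unadjusted p under 0.05), against 0.703% of all transcript clusters.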
